A study of Danio rerio with 18 samples.

Results

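The genes described here are 8 Six-family and Eya genes of the placode network in zebrafish (Danio rerio): six1a, six1b, six2a, six2b, six4a, six4b, eya1 and eya4. They were found by symbol in the probe-to-gene table of the array, taking only probe sets that name a single gene. In all, 6 of the 8 genes had such a probe set, 1 each, among 19260 genes measured this way. The genes six1a and six1b matched none and were not analysed here. RNA came from lateral line primordium cells of embryos younger than 3 days and was hybridised to 18 Affymetrix arrays, 6 per group. FGF overexpression embryos carried cldnb:lynGFP, cxcr4b:nls-tdTomato, the RU486-inducible driver cxcr4b:LexPR and lexOP:Fgf3-GFP, which makes Fgf3 wherever the cxcr4b promoter is active. SU5402 embryos carried only cldnb:lynGFP and cxcr4b:nls-tdTomato and were given 1 µM SU5402, an inhibitor of FGF receptor 1. Control embryos, which the labels call untreated, had the same pair of reporters as the SU5402 embryos and no SU5402. All 3 groups received 10 µM RU486 and 0.1% DMSO, so that the hormone analogue and the solvent are common to them, whereas the driver and Fgf3-GFP transgenes occur in FGF overexpression embryos only and their effects cannot be told apart.

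Six-family proteins are homeodomain transcription factors. Eya proteins carry no DNA-binding domain of their own; they bind Six-family proteins on DNA, act as co-activators and have phosphatase activity, while Dach proteins join the same complexes mainly as co-repressors. In vertebrate embryos the Six-family and Eya genes mark the preplacodal region, from which the ear, the lateral line and several cranial ganglia arise, and loss of eya1 in zebrafish disturbs the ear and the lateral line. The lateral line primordium is a migrating epithelial group that sets down the sense organs of the trunk, and FGF signals inside it organise cells into rosettes. The comparisons ask how the level of each gene differs when FGF signalling is lowered or raised.

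Each array gives 1 log2 signal for a probe set, so that a difference of 1 is a 2-fold difference. These signals have no true zero, and the median over all probe sets, 5.92 to 5.96 in the 3 groups, served as the mark below which a signal was not taken as a measured level. A gene was called changed at an adjusted p under 0.05 in the limma test over all 75212 probe sets. Among 16 listed primordium markers, cldnb, cxcr4b and epcam were well above that mark. In FGF overexpression, SU5402 and control arrays cldnb averaged 11.93, 11.83 and 11.90 (log2). In the same order cxcr4b averaged 11.01, 10.85 and 10.65, and epcam 11.87, 11.74 and 11.88. None of cldnb, cxcr4b and epcam was called under either treatment. Of all 16 markers, 4 rose and 7 fell under SU5402, and 3 rose and 4 fell under FGF overexpression. The levels of cldnb, cxcr4b and epcam therefore do not show that primordium content was equal across groups. At signals as high as those of cldnb and epcam an array can compress changes, which was not tested. Skeletal muscle markers were also high on all arrays, with a mean level over 29 genes of 9.48 to 10.22 in FGF overexpression, 9.32 to 10.35 in SU5402 and 9.48 to 10.41 in control arrays. In these bulk samples fewer cells of a type and less RNA per cell cannot be told apart.

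The largest effect among the 6 genes was on six2a, a homeobox gene of the Six2 pair. Its log2 signal had a lowest, median and highest value of 9.98, 10.65 and 11.04 in FGF overexpression arrays, 5.23, 5.54 and 6.11 in SU5402 arrays and 8.87, 9.54 and 10.06 in control arrays. In SU5402 arrays the signal lay around the median of all probe sets, above it on 2 of 6 arrays, and no SU5402 array came near a control array, whereas the range of FGF overexpression arrays touched that of control arrays only at its lower end. Under SU5402 six2a fell by at least 11.4-fold, with each array's median taken as the floor (measured log2 change -3.84, SE 0.20, adjusted p = 2.87e-10). Under FGF overexpression it rose 2.13-fold (log2 change 1.09, SE 0.20, adjusted p = 0.00226), with all 6 arrays above the control mean.

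Its paralog six2b also fell under SU5402 but stayed measurable. The lowest, median and highest log2 signals were 10.91, 11.20 and 11.43 in FGF overexpression arrays, 7.86, 8.31 and 8.52 in SU5402 arrays and 10.47, 10.93 and 11.05 in control arrays. All SU5402 arrays were far below all control arrays, while FGF overexpression and control arrays overlapped. The gene fell 6.08-fold under SU5402 (log2 change -2.60, SE 0.12, adjusted p = 1.02e-10). Under FGF overexpression it did not pass, at a log2 change of 0.31 (95% confidence interval 0.06 to 0.57, adjusted p = 0.192), although all 6 arrays lay above the control mean.

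**Figure D1:**
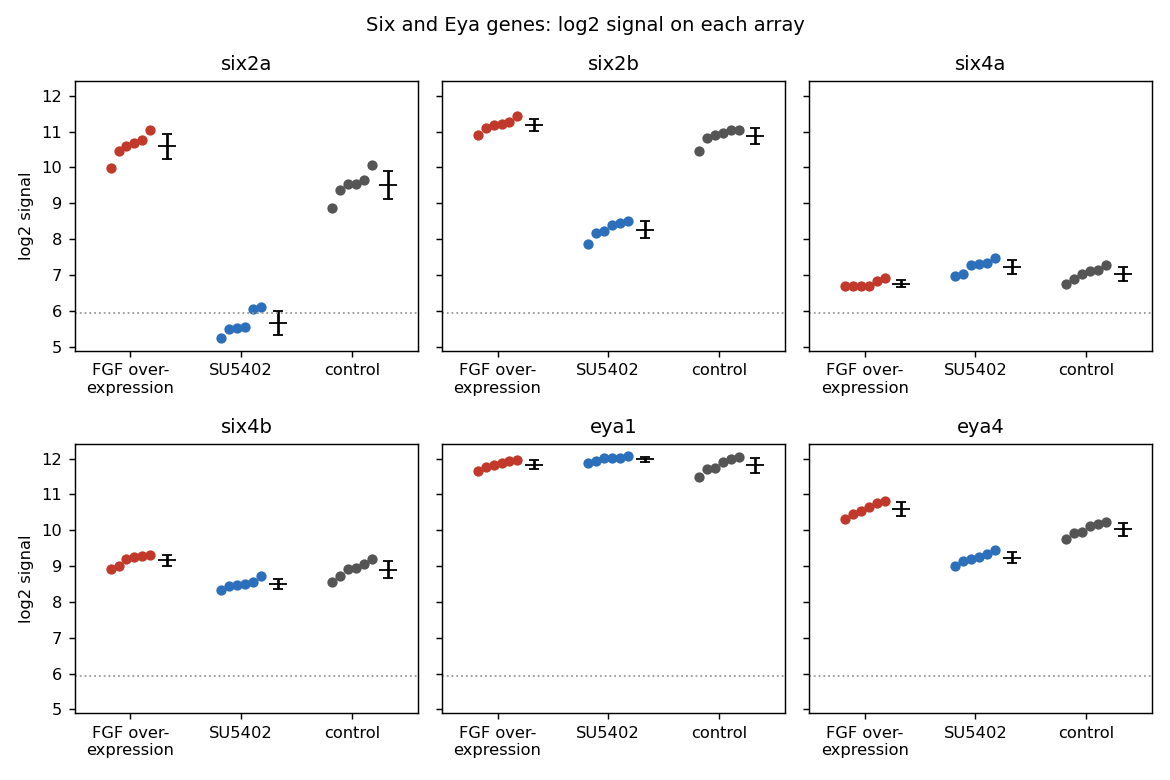
Log2 signal (vertical axis) of the 6 measured genes on each array of the FGF overexpression, SU5402 and control groups, sorted within a group; black marks give the mean and SD of 6 arrays, and the dotted line is the median of all values, 5.93. The SU5402 arrays of six2a sit at the dotted line, between 5.23 and 6.11, while those of six2b lie between 7.86 and 8.52.

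The Eya gene eya4, whose human counterpart is a deafness gene, moved both ways. Its lowest, median and highest log2 signals were 10.31, 10.59 and 10.82 in FGF overexpression arrays, 9.01, 9.23 and 9.44 in SU5402 arrays and 9.76, 10.03 and 10.22 in control arrays. The 3 groups did not overlap at all, with control in the middle, which was true of 1 of the 6 genes and of 1.35% of all named genes. It fell 1.73-fold under SU5402 (log2 change -0.79, SE 0.10, adjusted p = 3.68e-05) and rose 1.48-fold under FGF overexpression (log2 change 0.57 with an SE of 0.10, adjusted p = 0.00273).

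The Eya gene eya1 showed no call in any comparison. Its lowest, median and highest log2 signals were 11.64, 11.85 and 11.96 in FGF overexpression arrays, 11.88, 12.01 and 12.07 in SU5402 arrays and 11.47, 11.83 and 12.04 in control arrays. All 3 groups overlapped. The log2 change was 0.18 under SU5402 (95% confidence interval -0.02 to 0.37, adjusted p = 0.295) and 0.02 under FGF overexpression (95% confidence interval -0.17 to 0.21, adjusted p = 0.951), so that an increase above 0.37 lay outside both intervals. Its signals were within 3 log2 units of the highest value on the arrays, 13.88, a range in which an array can compress changes, and whether that applied here was not tested.

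Of the Six4 pair, six4b followed the direction of six2a and six2b with a small amplitude. Its lowest, median and highest log2 signals were 8.93, 9.22 and 9.30 in FGF overexpression arrays, 8.32, 8.50 and 8.73 in SU5402 arrays and 8.55, 8.94 and 9.20 in control arrays. Control arrays overlapped both treated groups, which did not overlap each other. The gene fell 1.32-fold under SU5402 (log2 change -0.40, SE 0.11, adjusted p = 0.0228), a call that was lost, with an adjusted p of 0.0545 to 0.102, when replicate 1, 2, 3, 4 or 6 was left out of all 3 groups, and kept without replicate 5. Under FGF overexpression its log2 change of 0.26 did not pass (SE 0.11, adjusted p = 0.231), with all 6 arrays above the control mean.

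The other member of the pair, six4a, had the lowest signals of its 3 groups under FGF overexpression. Lowest, median and highest log2 values were 6.68, 6.70 and 6.93 in FGF overexpression arrays, 6.96, 7.30 and 7.47 in SU5402 arrays and 6.74, 7.07 and 7.28 in control arrays. Control arrays overlapped both treated groups. Neither treatment passed against control, with log2 changes of -0.28 under FGF overexpression (SE 0.10, adjusted p = 0.161, all 6 arrays below the control mean) and 0.20 under SU5402 (SE 0.10, adjusted p = 0.283). Between the 2 treatments it was lower under FGF overexpression, by 1.39-fold (log2 change -0.48, SE 0.10, adjusted p = 0.00251), and the highest FGF overexpression array and the lowest SU5402 array were 0.03 apart.

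Counted over the 6 measured genes, 4 fell and none rose with SU5402, a comparison that 14.7% of all named genes passed and in which 8.13% fell. The groups did not overlap for 3 of the 6, against 9.76% of named genes. Under FGF overexpression 2 rose, six2a and eya4, and none fell, where 5.89% of named genes passed and 3.41% rose; the groups did not overlap for eya4 alone, against 5.02% of named genes. These same 2 genes fell under SU5402, and 1.23% of named genes were called in that pair of directions. Both comparisons use the same control arrays. The shares of named genes include genes with low signals. With low probe sets left out, 7516 of 37518 probe sets passed under SU5402, against 7074 of 75212 with all kept. Under FGF overexpression these numbers were 3442 of 37518 and 3052 of 75212. The genes described here were also chosen with earlier results of these data known. The median log2 change of the 6 genes was -0.59 under SU5402 and 0.28 under FGF overexpression, beside 0.01 and -0.01 over all named genes.

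The direct comparison of FGF overexpression with SU5402 takes its log2 changes from those 2 groups, while the control arrays enter only the shared estimate of the spread. In it 4 of the 6 genes were higher and 1, six4a, was lower, where 24.4% of named genes passed, and for these 5 genes the arrays of the 2 groups did not overlap, against 16.6% of named genes. Under FGF overexpression six2a was at least 24.2-fold higher than under SU5402 (measured log2 change 4.93, SE 0.20, adjusted p = 2.91e-12). For six2b the difference was 7.55-fold (log2 change 2.92, SE 0.12, adjusted p = 4.69e-12), for eya4 2.56-fold (log2 change 1.36, SE 0.10, adjusted p = 1.80e-08) and for six4b 1.57-fold (log2 change 0.65, SE 0.11, adjusted p = 0.000208). The eya1 difference of -0.16 did not pass (95% confidence interval -0.35 to 0.04, adjusted p = 0.287).

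**Figure D2:**
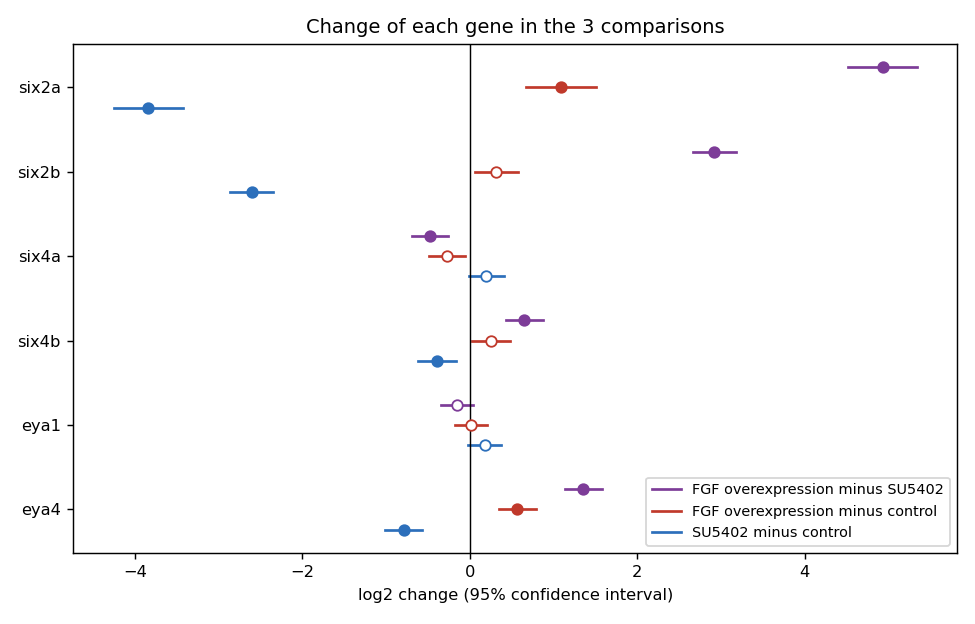
Log2 change (horizontal axis) of each gene with its 95% confidence interval for FGF overexpression minus SU5402, FGF overexpression minus control and SU5402 minus control; filled points passed the limma test at an adjusted p under 0.05 and open points did not. The SU5402 points of six2a and six2b lie at -3.84 and -2.60, whereas their FGF overexpression points against control lie at 1.09 and 0.31.

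The position of the control level between the 2 treatments was tested as a contrast of its own, the mean of both treatments minus control, in which 4.95% of named genes passed. For six2a this contrast was -1.38 (SE 0.17, adjusted p = 8.70e-05) and for six2b -1.15 (SE 0.11, adjusted p = 4.50e-06). On the log2 scale the control mean of both Six2 genes thus lay above the midpoint of the treatments, nearer to FGF overexpression. On a linear scale the position of control can differ, and it was not computed. Put as a share of the log2 span between the treatments, the step between SU5402 and control made up 77.9% for six2a and 89.3% for six2b, and 58.3% for eya4. The contrast did not pass for eya4 (-0.11, adjusted p = 0.637), six4a (-0.04, adjusted p = 0.894), six4b (-0.07, adjusted p = 0.801) or eya1 (0.10, adjusted p = 0.645). The share and the contrast of six2a rest on an SU5402 signal at the level of the median probe set. Those of six2b use FGF overexpression signals of 10.91 to 11.43, high enough that an array can compress changes, which was not tested.

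Related genes changed by unequal amounts. For each pair the log2 difference within an array was compared between groups by exact permutation tests, two-sided and adjusted by Benjamini-Hochberg over the 6 differences that could be computed; the smallest p that 6 arrays against 6 allow is 0.002165. A within-array difference says nothing of which gene is more abundant, and the files do not tell whether the probes separate sequences that paralogs share. For six2a minus six2b it averaged -2.61 ± 0.25 in SU5402 arrays and -1.37 ± 0.22 in control arrays (SD, n = 6 each), so that six2a fell by 1.24 more (log2 difference -1.24, exact p = 0.002165, adjusted p = 0.00325). In FGF overexpression arrays the same difference averaged -0.60 ± 0.20, against the control value of -1.37 ± 0.22 (SD, n = 6 each), a shift of 0.78 (exact p = 0.002165, adjusted p = 0.00325). In both tests no array of one group reached the range of the other, and six2a had the larger change on both sides. With six2a at the level of the median probe set under SU5402, the SU5402 difference rests on that low signal. The FGF overexpression difference uses six2b signals of 10.91 to 11.43, within 3 log2 units of the highest value on the arrays, 13.88. An array can compress changes in that range, and whether that applied here was not tested.

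For eya1 minus eya4 the mean was 2.76 ± 0.09 in SU5402 arrays and 1.79 ± 0.04 in control arrays (SD, n = 6 each), a shift of 0.97 (exact p = 0.002165, adjusted p = 0.00325). In FGF overexpression arrays it was 1.24 ± 0.07, against 1.79 ± 0.04 in control arrays (SD, n = 6 each), a shift of -0.55 (exact p = 0.002165, adjusted p = 0.00325). The groups did not overlap in either test, and of the pair eya4 alone was called against control. For six4a minus six4b the mean was -1.28 ± 0.19 in SU5402 arrays and -1.87 ± 0.41 in control arrays (SD, n = 6 each), a shift of 0.59 (exact p = 0.0108, adjusted p = 0.013). The arrays of the groups overlapped. Under FGF overexpression it was -2.40 ± 0.25, against -1.87 ± 0.41 in control (SD, n = 6 each), a shift of -0.53 (exact p = 0.026, adjusted p = 0.026) whose call was lost without replicate 3 or replicate 6 (adjusted p = 0.0873 and 0.0714, exact permutation test).

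**Figure D3:**
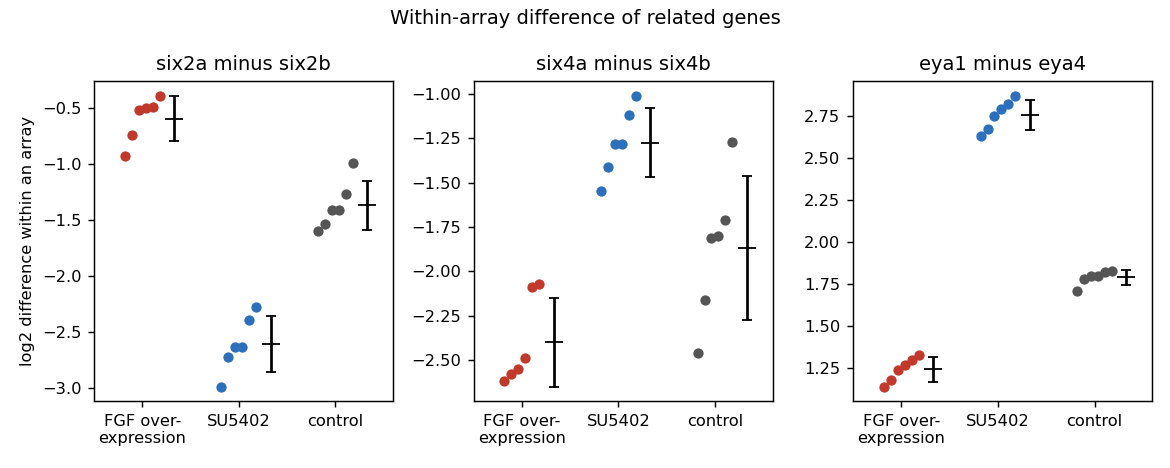
Within-array log2 difference (vertical axis, a scale of its own in each panel) of six2a minus six2b, six4a minus six4b and eya1 minus eya4 on the arrays of the FGF overexpression, SU5402 and control groups; black marks give the mean and SD of 6 arrays. For eya1 minus eya4 the 3 groups are far apart, with SDs of 0.07, 0.09 and 0.04.

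Within a group, eya1 and eya4 went up and down together from array to array. In the control group the deviations of eya1 from its group mean ran between -0.34 and 0.23 and those of eya4 between -0.26 and 0.20, yet their difference varied by an SD of only 0.04. Control replicate 5 had the lowest signal of the group for 5 of the 6 genes and the highest for six4a. Control replicate 1 had the highest signal for 5, level with replicate 2 for six2b at 11.05, and the lowest for six4a. FGF overexpression replicate 5 was likewise lowest in its group for 5 of 6 genes, whereas in the SU5402 group the lowest signals were spread over replicates 4, 6 and 2. On control replicate 5 the mean of the primordium markers was the lowest of its group, at 9.37 in a range of 9.37 to 9.86, and that of the muscle markers was 10.22 in a range of 9.48 to 10.41; the part of either in the genes' spread was not tested. Without replicate 5 in any group the log2 changes of eya4 were 0.57 under FGF overexpression and -0.84 under SU5402, and those of six2a were 1.08 under FGF overexpression and -4.04 under SU5402.

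**Figure D4:**
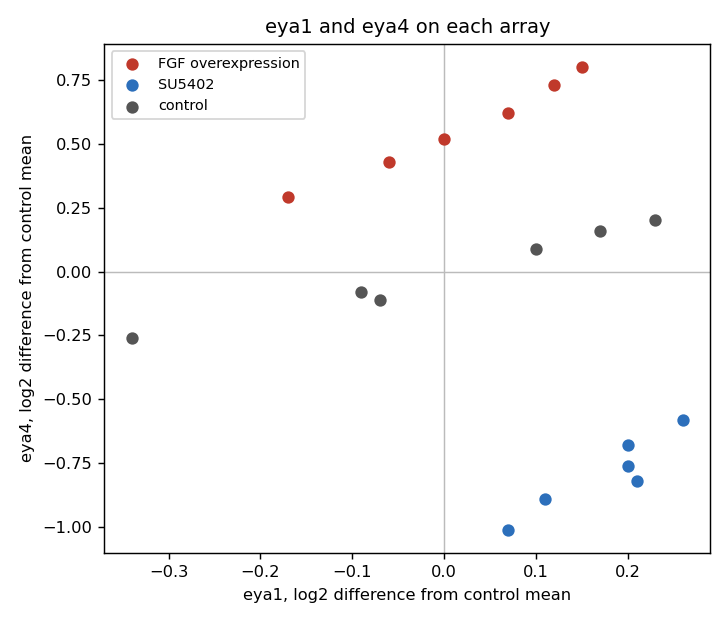
Each point is an array, placed by its log2 difference from the control mean in eya1 (horizontal axis) and eya4 (vertical axis), for the FGF overexpression, SU5402 and control groups. The arrays form 3 separate rising bands, offset in the eya4 direction and overlapping in the eya1 direction.

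Other Six-family, Eya and Dach genes formed a list of 13, all of them measured. With SU5402, 2 of them rose and 1 fell, beside 14.7% of named genes passing, and with FGF overexpression 3 fell and none rose, beside 5.89% passing. The Dach co-repressor gene dachb ran opposite to six2a and eya4: its log2 signal was 7.36 to 7.89 in FGF overexpression arrays, 9.98 to 10.28 in SU5402 arrays and 8.27 on average in control arrays, with no overlap between groups. It was higher under SU5402 (log2 change 1.82 with an SE of 0.12, adjusted p = 7.63e-09), and with FGF overexpression it fell (log2 change -0.67 with an SE of 0.12, adjusted p = 0.00233). A related gene, dachc, rose under SU5402 (log2 change 0.89, SE 0.16, adjusted p = 0.00104) and was at -0.38 under FGF overexpression (SE 0.16, adjusted p = 0.241), and dachd fell under FGF overexpression (log2 change -0.38 with an SE of 0.09, adjusted p = 0.0182) and was at 0.02 under SU5402 (adjusted p = 0.937). Another Eya gene, eya2, fell in both, by 1.52 on the log2 scale under SU5402 (SE 0.10, adjusted p = 4.10e-09) and by 0.43 under FGF overexpression (SE 0.10, adjusted p = 0.0132). None of six3a, six3b, six5, six6a, six6b, six7, six9, eya3 and dacha passed in either comparison with control, and in control arrays 4 of the 13 genes were at or below the median of all probe sets.

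A list of 22 preplacodal, otic and lateral line transcription factors, which act beside or upstream of Six-family and Eya genes, went both ways. Under SU5402 3 rose and 5 fell, beside 14.7% of named genes passing, and under FGF overexpression 2 rose and 1 fell, beside 5.89%. The risers were dlx4b (log2 change 2.04, SE 0.15), irx1a (0.89, SE 0.21) and dlx3b (0.86, SE 0.14), and the fallers irx7 (-1.13, SE 0.18), sox3 (-0.99, SE 0.12), sall1a (-0.64, SE 0.16), sox21a (-0.59, SE 0.15) and tfap2a (-0.30, SE 0.07), with adjusted p-values between 3.59e-08 for dlx4b and 0.0172 for sox21a. The SU5402 mean of irx7, 5.78, was below the median of all probe sets, so the size of its fall was not measured. Under FGF overexpression gbx2 (2.38, SE 0.18, adjusted p = 1.37e-07) and sox3 (1.08, SE 0.12, adjusted p = 1.24e-05) rose and tfap2a fell (-0.67, SE 0.07, adjusted p = 1.27e-05). The pax genes pax2a, pax2b and pax8, partners of Eya and Six-family proteins in the mammalian network, passed in neither comparison, nor did sox2, gata3, hmx2 or hmx3a. Of these, pax2a and pax8 are also on the list of pronephros markers described below, and which tissue their signals came from was not tested. All genes of this list and the next that passed are named, and those beyond the first 4 by p were added after their values were seen.

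Sensory and neurogenic factors were a list of 16 with 15 measured. Of these 5 fell and 1 rose under SU5402, beside the 14.7% of named genes that passed, and 3 rose and none fell under FGF overexpression, beside 5.89%. The hair cell determination genes atoh1a (log2 change -1.42, SE 0.14) and atoh1b (-0.99, SE 0.12), the zinc finger genes insm1a (-0.97, SE 0.15), insm1b (-1.18, SE 0.12) and gfi1ab (-1.20, SE 0.14) fell under SU5402, with adjusted p-values between 1.68e-06 for atoh1a and 0.00027 for insm1a. The SU5402 mean of atoh1b, 5.41, was below the median of all probe sets, so the size of its fall was not measured. Under FGF overexpression insm1b (0.47, SE 0.12, adjusted p = 0.0296), sox4a (0.83, SE 0.10, adjusted p = 3.16e-05) and prox1a (0.33, SE 0.08, adjusted p = 0.0241) rose, and prox1a rose under SU5402 as well (0.62, SE 0.08, adjusted p = 3.24e-05). The median log2 change of the list was -0.43 under SU5402 and 0.33 under FGF overexpression, beside 0.01 and -0.01 over all named genes. Of these genes insm1b, like sox3 of the list before, was called in the directions of six2a and eya4, lower under SU5402 and higher under FGF overexpression.

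**Figure D5:**
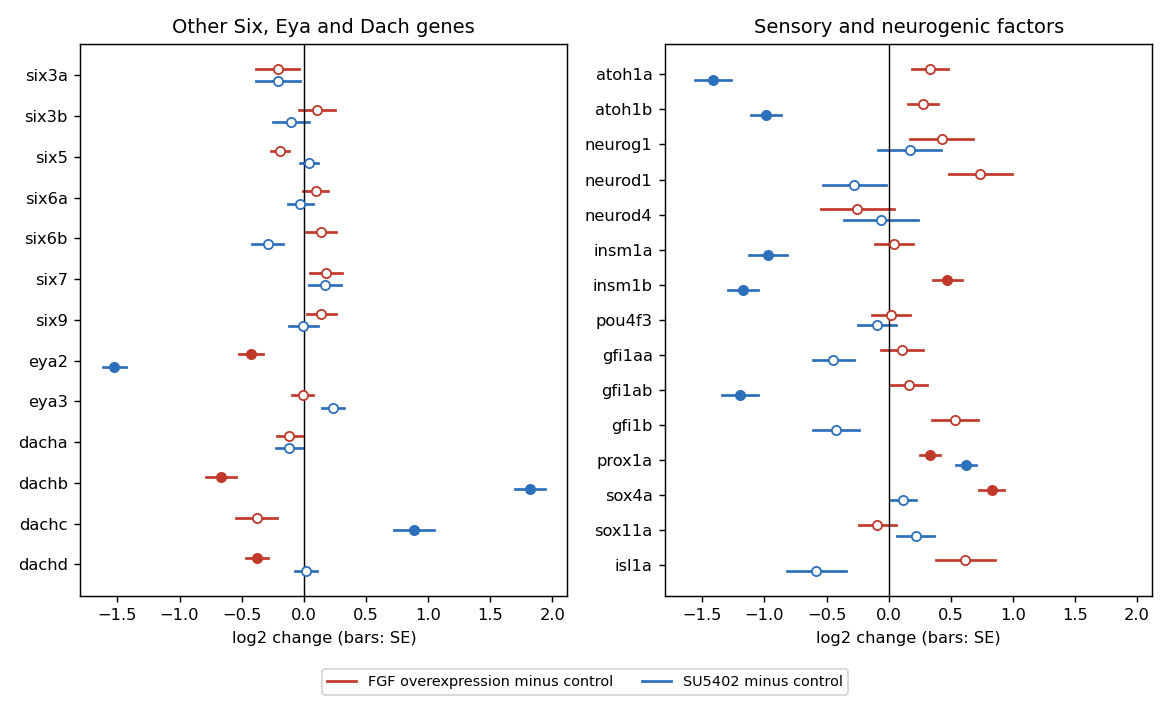
Log2 change (horizontal axis; bars give 1 SE) of the other Six-family, Eya and Dach genes and of the measured sensory and neurogenic factors, for FGF overexpression minus control and SU5402 minus control; filled points passed the limma test at an adjusted p under 0.05. For dachb the points lie at -0.67 and 1.82, and for eya2 both are below 0, at -0.43 and -1.52.

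The genes whose signal most resembled each called gene over the 18 arrays were found by Pearson's r among 16925 named genes. The Six-family and Eya genes described here and genes with clone or predicted-locus names were left out of this search. The r values are given as a description, since the points share the arrays and the 3 group means. Because the genes were picked by likeness over these same arrays, their own group changes are not independent of that choice. For six2a they were grhl2a (r = 0.997), which encodes an epithelial transcription factor of the grainyhead family, negaly6 (r = 0.994) and rab25a (r = 0.994), which encodes a small GTPase of epithelial recycling. For six2b they were rab25a (r = 0.991), mcf2lb (r = 0.99) and grhl2a (r = 0.988). The log2 changes of grhl2a were -2.49 under SU5402 (SE 0.11, adjusted p = 3.36e-11) and 0.69 under FGF overexpression (SE 0.11, adjusted p = 0.000621). Its SU5402 mean, 5.99, was close to the median of all probe sets in that group, 5.96, so the size of its fall rests on a low signal. With the group means removed, grhl2a still had r = 0.87 with six2a and 0.641 with six2b.

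The nearest genes to eya4 were gjz1 (r = 0.985), the nuclear receptor gene rorb (r = 0.98) and stard15 (r = 0.98). Of these rorb changed by -1.84 under SU5402 and 1.83 under FGF overexpression (SE 0.16 each, adjusted p = 2.00e-07 under SU5402 and 5.77e-07 under FGF overexpression). The SU5402 mean of rorb, 6.11, was also near the median of all probe sets. For six4b they were rpz5 (r = 0.951), the glypican gene gpc1a (r = 0.946) and the lipid kinase gene pip5k1aa (r = 0.945), and for six4a the kinase gene MAST2 (r = 0.913), aida (r = 0.894) and the fibronectin gene fn1b (r = 0.89). Fibronectin gene fn1b is also on the mesenchyme list, and it changed by 0.98 under SU5402 (adjusted p = 0.000697) and -0.62 under FGF overexpression (adjusted p = 0.0499), the directions in which six4a differed without passing.

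Neighbours on the chromosome were taken from the gene order of the zebrafish assembly GRCz12tu, in which six2a lies next to six3a and six2b next to six3b, and six6a is 2 steps from six4a and six6b 2 steps from six4b. Of 24 distinct protein-coding genes within 2 steps of any of the 8 genes, members aside, 22 were measured. Under SU5402 1 rose and 2 fell, a share near the 14.7% of all named genes that passed, and under FGF overexpression none passed, beside 5.89% of named genes. The neighbour six3a of six2a was at 4.27 in SU5402 arrays and 4.48 in control arrays (log2 change -0.21, adjusted p = 0.57), below the median of all probe sets in both. Likewise six3b was below that median in both, at 5.68 in SU5402 arrays and 5.78 in control arrays (log2 change -0.10, adjusted p = 0.772). The 3 that passed were msc beside eya1 (0.38, adjusted p = 0.0348), whose control mean of 5.79 was below the median of all probe sets, epas1a (-0.83, adjusted p = 0.0275), which is 2 steps from six2b, and zgc:153284 (-0.59, adjusted p = 0.00411), which is 2 steps from eya4.

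Markers of other cell types that express Six-family and Eya genes, or that the samples could hold, were set beside these results, and their counts are to be read against the 14.7% of named genes that passed under SU5402 and the 5.89% under FGF overexpression. None of 29 skeletal muscle markers passed in any of the 3 comparisons, and the ranges of their mean level, given above, overlapped between groups. Their median log2 change was -0.215 under SU5402 and -0.25 under FGF overexpression, beside 0.01 and -0.01 over all named genes. At each replicate number the muscle mean was lower on both treated arrays than on the control array. Whether muscle content differed was not tested. Skin and periderm were represented by 24 markers, with 11 lower and 1 higher under SU5402 and 1 lower under FGF overexpression, and had mean levels of 9.30 to 9.49 in FGF overexpression arrays, 8.49 to 8.88 in SU5402 arrays and 9.05 to 9.62 in control arrays. The keratin gene krt1-c5 fell by 3.17 and the desmosomal gene pkp1b by 2.3 on the log2 scale under SU5402. Skin markers thus moved in the direction of six2a, six2b, six4b and eya4 under SU5402, and their part in those falls was not tested. Of 18 neuron and ganglion markers 2 fell under SU5402 and 1 rose under FGF overexpression, neither count above those shares, with mean levels of 6.75 to 7.13 in FGF overexpression arrays, 6.35 to 6.95 in SU5402 arrays and 6.47 to 7.21 in control arrays. Between the treatments 6 of the 18 were higher under FGF overexpression than under SU5402 and none was lower, beside 24.4% of named genes passing. Among these 6, isl1a and neurod1 are also on the sensory list. Of 21 mesenchyme and cartilage markers 2 rose and 2 fell under SU5402 and 1 fell under FGF overexpression, with mean levels of 6.66 to 7.31 in FGF overexpression arrays, 6.73 to 7.60 in SU5402 arrays and 6.79 to 7.59 in control arrays. None of 15 pronephros markers passed against control. Of the 16 primordium markers 4 rose and 7 fell under SU5402, among them lef1 (1.52), etv4 (-3.53) and tcf7l2 (-2.09). The SU5402 mean of etv4, 5.73, was below the median of all probe sets, so the size of its fall was not measured. Under FGF overexpression 3 rose, ackr3a (3.03) among them, and 4 fell. Mean levels of the primordium list were 9.64 to 9.85 in FGF overexpression arrays, 9.07 to 9.16 in SU5402 arrays and 9.37 to 9.86 in control arrays. The SU5402 range thus lay below the control range, the direction of six2a, six2b, six4b and eya4. The part of this difference in those falls was not tested. The list holds genes of the FGF pathway itself: etv5b (-1.52) and fgfr1a (-1.26) fell beside etv4 under SU5402, and fgf10a (1.56) rose. Its mean therefore cannot tell primordium content from a response of those genes to SU5402. The primordium list shares atoh1a and prox1a with the sensory list, and hmx2 and hmx3a with the list of partners. The pronephros list shares pax2a and pax8 with the list of partners, and the neuron list shares isl1a and neurod1 with the sensory list. Markers at or below the median of all probe sets in control arrays numbered 1 of 29 for muscle, 1 of 24 for skin, 2 of 18 for neurons, 5 of 21 for mesenchyme, 2 of 15 for pronephros and none of 16 for the primordium.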

How the data were processed

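RNA of 18 zebrafish samples was measured on Affymetrix arrays, 6 per group. The deposited values are log2 signals, made by the authors with Affymetrix Power Tools and RMA, per the submitters' processing notes. The genome build and the way the primordium cells were isolated were stated neither in the labels nor in the notes. Values were used as deposited, without filter or further scaling.

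Groups were compared in limma 3.58.1 (R 4.3.3) with 1 mean per group over all 18 arrays, and p-values were adjusted by Benjamini-Hochberg over 75212 probe sets, with a threshold of 0.05. The probe set with the highest mean stood for a gene. Differences between related genes were tested by exact permutation (scipy 1.17.1). Precision is limited by how many arrays there are. The labels call the replicates biological but do not name separate clutches. The p-values thus set a group difference against the spread between these samples, which need not be that between clutches.

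Gene lists held 183 entries, of which 173 were found, by the symbol in the array's table or the current symbol in the GRCz12tu gene table. The members and lists were chosen with earlier results of these data known. Named were all members, up to 4 called genes per list by smallest p, and the 3 genes most alike to each. For eya1, which was not called, that last rule names none. Other list genes in the text, such as etv5b, fgfr1a and fgf10a of the primordium list, were added outside these rules with their values known. Alternatives were pairwise fits, a shift of array medians, a trended and robust variance, array weights, a replicate block, a filter on low values, 1 of identical probe sets, and each replicate number left out. No sequences were used here.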

Additional observations from a re-analysis of the deposited data

How the results depend on the processing

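The counts of called genes stayed within 1.5 times of the reported ones under all 13 alternatives (12 for the mean of both treatments): 3 to 4 under SU5402, and 2, 5 and 2 in the other comparisons. Of 306 single values, 298 kept direction and side of the threshold. The call of six4b under SU5402 was lost in 5 fits without a replicate. The eya1 change under FGF overexpression, 0.02 and not called, reversed to -0.0152 with array weights, -0.012 without replicate 5 and -0.010 without replicate 6, in a range of -0.012 to 0.042 over the 6 replicates left out. The exact test of six4a minus six4b under FGF overexpression was not called without replicate 3 or 6, and over the 6 replicates left out its value ran from -0.61 to -0.47; the cause was not tested, beside the smaller number of arrays. No measured Six-family or Eya gene of the 6 had a second probe set, so that alternative was not run.

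Same-numbered arrays of different groups had deviations from the group means that correlated with r of 0.01 to 0.23 (median 0.09), 8 of 18 over 0.1, beside a median of -0.02 and 5 of 90 over 0.1 for arrays of different number. An array correlated best with its own number in 20 of 36 comparisons with another group. Each array was matched against the 6 arrays of the other group. The mean of the muscle markers was highest on replicate 6 in FGF overexpression, SU5402 and control arrays (10.22, 10.35 and 10.41). It was lowest on replicate 1 in each (9.48, 9.32 and 9.48). These values point to something shared by arrays of the same number, though not every pair was over 0.1. The labels state no link, so the samples were not taken as paired. The exact permutation tests took no account of replicate number. With a replicate block 4, 2, 5 and 2 genes were called, as without it, and under FGF overexpression six2b, six4a and six4b did not pass with it either (adjusted p = 0.153, 0.114 and 0.161), while calls over all probe sets numbered 8390 under SU5402 and 3950 under FGF overexpression, against 7074 and 3052 without it. Signals near the median of all probe sets limit what can be said of six2a under SU5402.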
